A study of Mus musculus with 2 samples.

Results

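Complement genes of the macrophage were described in nuclear RNA: the C1q chain genes C1qa, C1qb and C1qc, the alternative pathway genes C3, Cfb and Cfp, and the anaphylatoxin receptor genes C3ar1 and C5ar1. These 8 genes were taken by symbol from a fixed list and joined by gene identifier, out of 55536 annotated genes, of which 22028 were protein-coding. The cells were primary macrophages grown from bone marrow of C57BL/6J mice, and both libraries received 100 ng/ml Lipid A, the membrane anchor of bacterial lipopolysaccharide, for 10 min before their nuclear RNA was isolated, depleted of ribosomal RNA and sequenced. Strain, cell type and treatment were the same in both, age and sex were not collected, and cells without Lipid A were not analysed here, so no level below measures a response to it. The fraction is labelled nucleoplasmic in the description and nucleus elsewhere. The libraries come from 2 biosamples with a common donor identifier, and nothing says that these were separate animals, so their spread may be technical.

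Complement is a cascade of blood proteins that tags microbes and dying cells for uptake. C1q, built from its A, B and C chains, recognises targets and starts the classical pathway. Cleavage of C3 is the step that all pathways share, factor B supplies the protease of the alternative pathway, and properdin stabilises that enzyme. The fragments C3a and C5a released along the way signal through receptors on myeloid cells. Liver makes most complement proteins of plasma, whereas tissue macrophages are a main source of C1q and myeloid cells of properdin.

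Levels are given in TPM, which divides counts by effective transcript length and scales each table to the same total. All 8 genes reached 1 TPM in both libraries, a level that 46.0% of protein-coding genes and 23.6% of all annotated genes reached. Annotated genes received 19153465 expected counts in replicate 1, made from 1 µg of RNA, and 11622346 in replicate 2, made from 500 ng. The cell type label was checked against markers. Of the macrophage genes 9 of 9 were detected, with summed levels of 4378 and 2814 TPM in replicates 1 and 2. None of 6 hepatocyte genes was detected (0.06 and 0.09 TPM summed, with 4 of 6, Alb among them, at 0 counts in both), nor any of 6 fibroblast and stromal genes (0.33 and 0.5 TPM) or 4 mast cell genes (0 and 0.37 TPM). Of 7 neutrophil genes S100a8 was detected, and the list summed to 5.5 and 4.28 TPM with Elane at 0 counts. In bulk RNA, fewer cells of a type and less RNA per cell cannot be told apart.

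By mean level the order was C1qb, C1qc, Cfp, C3ar1, C5ar1, C1qa, C3 and Cfb. The ranges of neighbouring genes over the libraries overlapped from C1qb through C3ar1, and again between C5ar1 and C1qa. Within each library, however, C1qb exceeded C1qc, Cfp exceeded C3ar1 and C5ar1 exceeded C1qa. The ranges of C3ar1 and C5ar1 did not overlap, nor did those of C1qa and C3, or of C3 and Cfb. The separation of C3 from Cfb was lost in the second quantification, a separate set of deposited transcript tables summed per gene, where C3 stood at 3.07 and 2.54 TPM and Cfb at 2.42 and 3.16 TPM in replicates 1 and 2. In the gene tables the same order held in each library except that Cfp stood above C1qc in replicate 2. Cfp also stood above C1qc in replicate 2 of the second quantification, at 106 against 84.3 TPM.

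**Figure D1:**
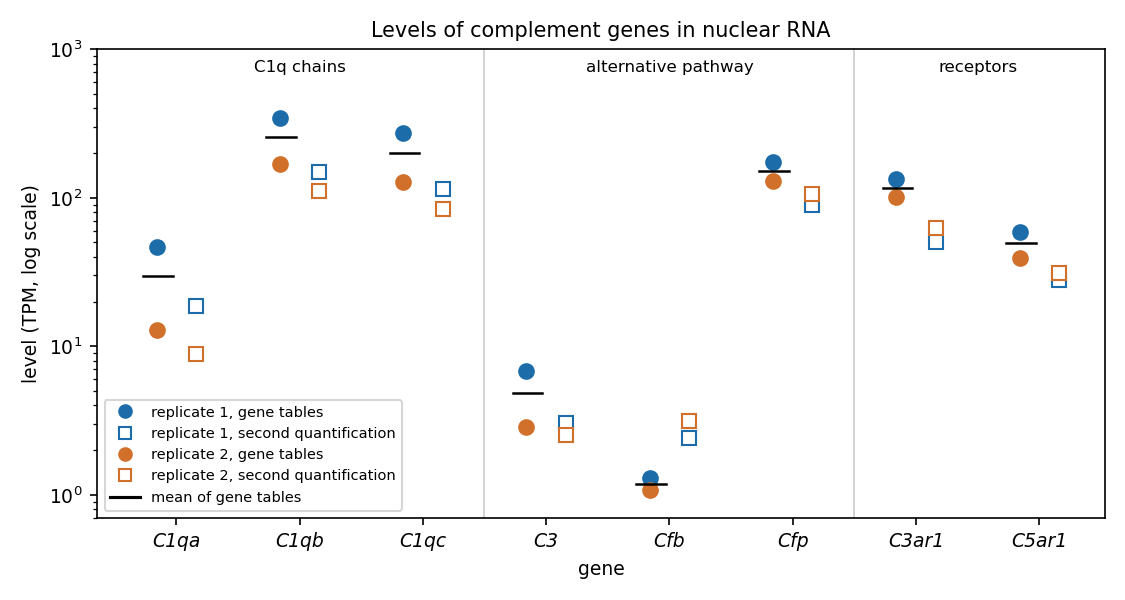
Level of each gene in TPM on a log axis, grouped by role. Filled circles are the 2 libraries in the gene tables, horizontal bars their means, and open squares the same libraries in the second quantification. C1qb and C1qc lie highest in replicate 1 and Cfb lowest, and the circles of the C1q genes and of C3 are farther apart than those of the other genes.

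C1qb, which encodes the B chain of C1q, had the highest mean level of the 8 genes, and C1qc, which encodes the C chain, came next. C1qb stood at 347 TPM in replicate 1 and 168 TPM in replicate 2 (257 ± 126, SD, n = 2), from 6710 and 2128 expected counts. C1qc stood at 275 and 127 TPM (201 ± 105, SD, n = 2), from 5874 and 1754 counts. Among protein-coding genes C1qb ranked 54 in replicate 1 and 144 in replicate 2, and C1qc ranked 79 and 210. C1qa, which encodes the A chain, stood lower, at 46.4 TPM in replicate 1 and 13.0 TPM in replicate 2 (29.7 ± 23.6, SD, n = 2), from 847 and 155 counts. The exact Poisson 95% intervals of C1qa, which cover counting error only, ran from 43.3 to 49.6 TPM and from 11.0 to 15.2 TPM. In both libraries the interval of C1qa lay below the levels of its partner chains.

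The 3 C1q genes lie beside one another on the minus strand of chromosome 4 in mm10, within 18675 bases and with no other annotated gene between them. C1qb spans chr4:136880129-136886187, C1qc chr4:136889804-136893065 and C1qa chr4:136895917-136898803, each with 3 exons in its coding transcript. The gaps are 3616 bases between C1qb and C1qc and 2851 bases between C1qc and C1qa. Their coding sequences share a feature that the other 5 genes lack, the repeat of a collagen-like stem in which glycine recurs at every 3 residues. The longest run of glycine codons (GGN) spaced 3 codons apart was 29 repeats in C1qb, 16 in C1qa and 16 in C1qc, against 2 in each of the other genes.

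The chains differed from each other by a steady amount for one pair and not for the other. C1qb exceeded C1qc by 1.26 times in replicate 1 and 1.33 times in replicate 2, and by 1.30 and 1.32 times in the second quantification. The ratio of C1qb to C1qa was 7.48 in replicate 1 and 13.0 in replicate 2, with 7.98 and 12.5 in the second quantification. The ratio of C1qc to C1qa moved likewise, from 5.92 to 9.78. C1qa was 3.58 times higher in replicate 1 than in replicate 2, against 2.06 times for C1qb and 2.17 times for C1qc. These ratios were smaller in the second quantification, at 2.08, 1.34 and 1.35 times. Levels were lower there too, with C1qb at 148 and 111 TPM, C1qc at 114 and 84.3 TPM and C1qa at 18.6 and 8.92 TPM.

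The sequences next to the starts of C1qb and C1qc are shown because these adjacent genes had the highest mean levels and kept nearly the same ratio in both libraries. Promoters came from a RefSeq-derived table (GRCm38, the assembly that mm10 names), which held 6 of the 8 genes; C1qa and Cfb were not in it. Each is printed 5′ to 3′ on the gene's own minus strand and cut to bases upstream of every annotated start, with matches to the searched motifs in capitals.
C1qb, chr4:136886201-136886450: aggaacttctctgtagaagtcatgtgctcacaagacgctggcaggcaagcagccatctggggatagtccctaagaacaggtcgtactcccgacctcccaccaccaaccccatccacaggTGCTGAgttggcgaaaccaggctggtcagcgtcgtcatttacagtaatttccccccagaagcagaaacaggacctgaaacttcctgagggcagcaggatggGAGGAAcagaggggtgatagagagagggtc
C1qc, chr4:136893066-136893164: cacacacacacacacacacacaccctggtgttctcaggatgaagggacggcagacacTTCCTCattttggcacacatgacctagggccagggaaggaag
A set of 6 motifs was searched on both strands in the 250 bases before each RefSeq start. They were the PU box of ETS factors, spelled GAGGAA, and the half-site bound by MAF factors, spelled TGCTGA. The AP-1 site was spelled TGANTCA and the site of C/EBP factors TTGCNNAA. The TATA box was spelled TATAAA, and the interferon-stimulated response element was searched by its core with 2 free bases. GAGGAA occurred in C1qb at -30 to -25 and in C1qc, on the other strand, at -193 to -188, counted back from the RefSeq start. It occurs in 23.3% of the 32851 promoters of the table, so a match is common. TGCTGA occurred in C1qb at -131 to -126, and in 16.1% of all promoters. The remaining motifs had no match in either window, and no matches within a gene overlapped.

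Among the alternative pathway genes, Cfp, which encodes properdin, held nearly all of the level. Cfp stood at 173 TPM in replicate 1 and 130 TPM in replicate 2 (152 ± 30.4, SD, n = 2), from 5199 and 2475 counts, and ranked 161 and 203 among protein-coding genes. C3, which encodes the central component, stood at 6.84 and 2.84 TPM (4.84 ± 2.83, SD, n = 2), from 734 and 159 counts, and ranked 6637 and 8640. Cfb, which encodes factor B, stood at 1.30 and 1.07 TPM (1.19 ± 0.163, SD, n = 2), from 41 and 15 counts. Its Poisson 95% intervals, 0.933 to 1.76 TPM and 0.599 to 1.76 TPM, reached below the detection level in both libraries. Cfp made up 95.5% of the summed level of the 3 genes in replicate 1 and 97.1% in replicate 2. Its level was 25.3 and 45.8 times that of C3, with 29.4 and 41.8 times in the second quantification.

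These 3 genes lie apart from one another: Cfp at chrX:20925454-20931555 with 9 exons, C3 at chr17:57203970-57228136 with 41 exons and Cfb at chr17:34856374-34862518 with 18 exons, all on the minus strand. Upstream sequences of Cfp and C3 are shown because they differed more in level than any other pair of 1 class in the promoter table.
Cfp, chrX:20931556-20931805: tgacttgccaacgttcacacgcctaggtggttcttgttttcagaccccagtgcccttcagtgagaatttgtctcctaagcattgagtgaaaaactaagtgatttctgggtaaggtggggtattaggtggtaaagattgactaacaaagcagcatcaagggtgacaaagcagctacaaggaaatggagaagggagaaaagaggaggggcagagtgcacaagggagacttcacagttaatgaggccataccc
C3, chr17:57228137-57228386: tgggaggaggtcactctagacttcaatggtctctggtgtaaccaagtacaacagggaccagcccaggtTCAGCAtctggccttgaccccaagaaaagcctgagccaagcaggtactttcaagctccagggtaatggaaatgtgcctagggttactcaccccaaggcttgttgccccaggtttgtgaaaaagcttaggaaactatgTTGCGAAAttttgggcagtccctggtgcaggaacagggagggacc
Cfp had no match to any of the 6 motifs. C3 had TTGCNNAA at -45 to -38, a motif in 9.56% of all promoters, and TGCTGA on the other strand at -182 to -177. C3 contains the annotated microRNA gene Mir6978 on its own strand, which had 0 counts in both libraries.

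The level of Cfb is uncertain. It rests on 41 and 15 counts in replicates 1 and 2, and Cfb shares most of its annotated sequence with another gene model. Of the 2936 distinct 31-base words in its annotated transcripts, 2218 (75.5%) also occur in Gm20547, a protein-coding gene model on the same strand at chr17:34856412-34882042. This model runs through Cfb and on into C2, whose gene lies 85 bases from Cfb. Gm20547 was listed at 0 in both libraries and in both quantifications. Cfb stood at 2.42 and 3.16 TPM in the second quantification, from 154 and 107 estimated counts, above its gene table values in both libraries. C2, which encodes a protease subunit of the classical pathway, is named here with its values known: 0.24 and 0.30 TPM in the gene tables and 3.39 and 4.14 TPM in the second quantification. How reads shared among these genes were assigned was not tested. Cfb also contains Mir6972 on its own strand, and lies 1 base from Nelfe. Mir6972 had 0 counts in the gene tables, and stood at 0 TPM in replicate 1 and 3.81 TPM in replicate 2 of the second quantification.

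The receptor genes were both well above detection. C3ar1, which encodes the receptor for C3a, stood at 133 TPM in replicate 1 and 101 TPM in replicate 2 (117 ± 22.9, SD, n = 2), and its 12203 and 5960 counts were the most of any of the 8 genes. C5ar1, which encodes the receptor for C5a, stood at 59.3 and 39.3 TPM (49.3 ± 14.1, SD, n = 2), from 3016 and 1292 counts. C3ar1 exceeded C5ar1 by 2.25 and 2.56 times in the gene tables and by 1.81 and 2.03 times in the second quantification. C3ar1 spans chr6:122847138-122856161 with 2 exons and C5ar1 chr7:16246743-16259540 with 3. In the 250 bases before the start of C3ar1, TGANTCA occurred at -22 to -16 (in 6.75% of all promoters), TGCTGA at -144 to -139 and TATAAA at -235 to -230 (in 12.4%). C5ar1 had TGCTGA at -17 to -12 from its RefSeq start. This match lies within the annotated gene, as only 48 of the 250 bases are upstream of every annotated start. The interferon-stimulated response element, present in 2.98% of promoters, occurred in none of the 6 genes searched.

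Compared by class, the C1q genes held the largest share of the summed TPM in each library. The summed level of the 8 genes was 1041 TPM in replicate 1, against 582 TPM in replicate 2. The C1q chains made up 64.1% of this in replicate 1 and 52.9% in replicate 2 (58.5 ± 7.93%, SD, n = 2). The alternative pathway genes made up 17.4% and 23.0% (20.2 ± 3.98%), and the receptors 18.5% and 24.1% (21.3 ± 3.95%). The C1q sum was 3.47 and 2.20 times the receptor sum, and 3.68 and 2.30 times the alternative pathway sum. The last 2 classes did not differ beyond their spread over the libraries. Within each library of the gene tables the receptor sum was slightly larger, at 192 against 181 TPM and 140 against 134 TPM. This order was reversed in the second quantification, at 78.8 against 95.5 TPM in replicate 1 and 94.1 against 112 TPM in replicate 2. In the second quantification the C1q share was 61.7% and 49.8%. By expected counts, which are not divided by length, it was 38.8% and 29.0%, and the receptors, with the long C3ar1 transcript, held 44% and 52%.

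**Figure D2:**
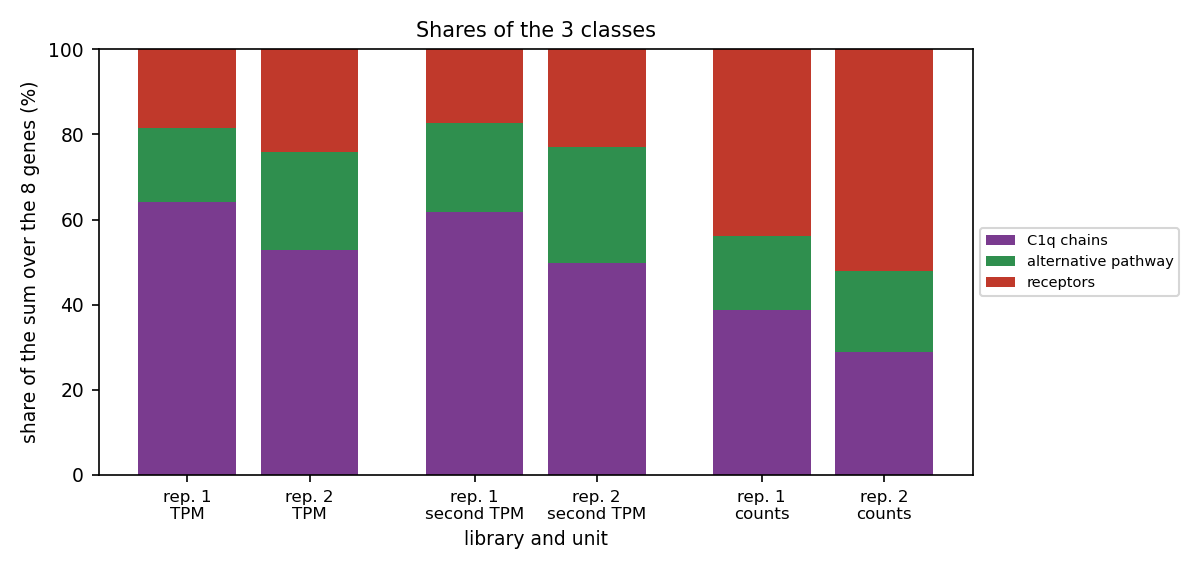
Share of each class in the sum over the 8 genes, in percent, for each library. The first pair of bars uses TPM of the gene tables, the second TPM of the second quantification and the third expected counts without division by length. The C1q share is larger in replicate 1 than in replicate 2 in every pair, and the receptor share is the largest by expected counts.

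The libraries were then compared gene by gene, as replicate 1 minus replicate 2 in log2(TPM + 1), taken relative to the median of the 13951 genes whose mean reached 1 TPM. With 1 library on each side there is no test, and the pseudocount of 1 understates differences of low genes. The difference was 1.66 for C1qa, 1.01 for C1qc and 0.94 for C1qb. In the alternative pathway it was 0.93 for C3, 0.31 for Cfp and 0.05 for Cfb, and among receptors 0.48 for C5ar1 and 0.30 for C3ar1. On expected counts scaled by TMM factors, which leave out the effective lengths that differed between libraries for C3 and Cfb, the difference was 1.46 for C3 and 0.68 for Cfb, above the 0.48 of C5ar1. In TPM the C1q genes and C3 lay above Cfp, Cfb and the receptors. A larger difference was found in 1.23% of all tested genes for C1qa, 2.87% for C1qc, 3.24% for C1qb and 3.30% for C3, but in 10.7% for C5ar1, 19.6% for Cfp, 20.4% for C3ar1 and 44.1% for Cfb.

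More than 2-fold higher in replicate 1 were 2 of the 8 genes, C1qa and C1qc, against 2.87% of all tested genes. None was more than 2-fold higher in replicate 2, against 1.54% of tested genes. C1qc lay just above 2-fold, and C1qb and C3 just below. Which genes passed depended on the setting: C3 passed with a pseudocount of 0.1 (1.12) and on counts scaled by TMM (1.46) or DESeq2 size factors (1.46), whereas C1qc fell just short of 2-fold with that pseudocount and with TMM. C1qb passed in none of these 3. All 8 genes lay above the median gene, as 50.0% of tested genes do by construction, and their median difference was 0.70. In the second quantification, centred on its own median gene, the differences were 1.35 for C1qa, 0.80 for C1qc, 0.79 for C1qb and 0.57 for C3, and between 0.06 and 0.23 for the other genes, so C1qa alone was past 2-fold, against 3.05% of tested genes there. None was past 2-fold the other way, against 3.58%. The median gene itself stood at 0.10 in the gene tables and at -0.37 in the second quantification. Without centring there, Cfb, Cfp, C3ar1 and C5ar1 were lower in replicate 1, at -0.28, -0.24, -0.31 and -0.14, while the C1q genes and C3 were higher in replicate 1 in both quantifications under all scalings tried.

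**Figure D3:**
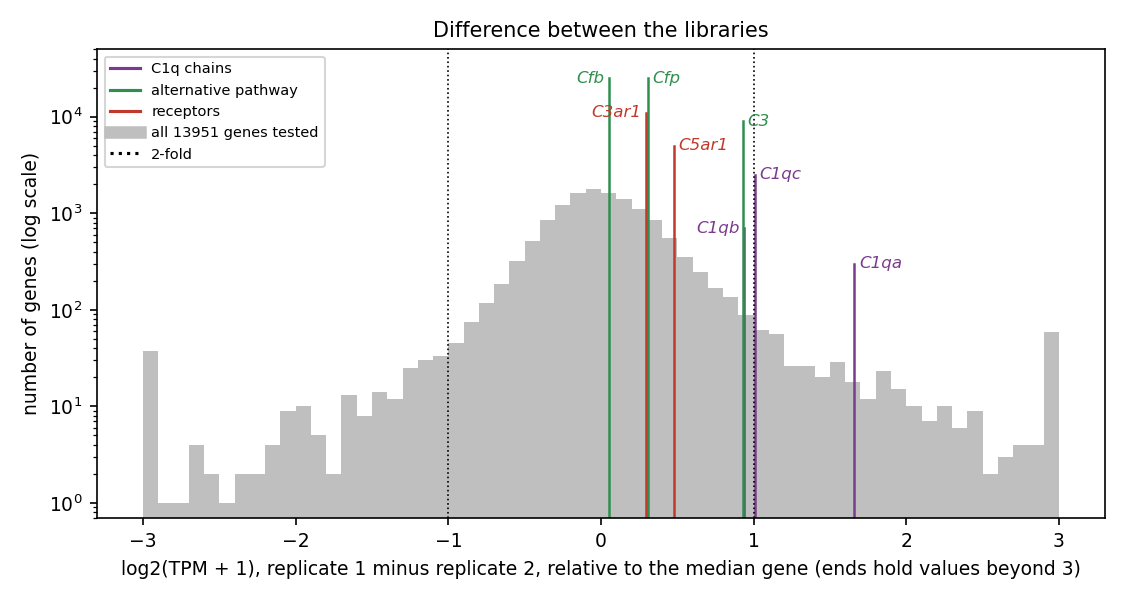
Histogram of the difference between libraries, replicate 1 minus replicate 2 in log2(TPM + 1) relative to the median gene, over 13951 genes of the gene tables on a log count axis. Coloured lines mark the 8 genes by class, their heights serve only to separate the names, and dotted lines mark 2-fold. C1qa lies farthest right at 1.66 and Cfb lies at 0.05; uncentred in the second quantification, Cfb, Cfp and both receptors fall below 0.

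Other quantities moved with this difference. Protein-coding genes with an effective length under 1000 bases, where all 3 C1q genes lie, had a median difference of 0.16, and 6.00% of 1449 were more than 2-fold higher in replicate 1. Among genes of 4000 bases and more, where C3ar1 and C3 lie by their mean over libraries, the median was -0.05 and 0.198% of 1512 were more than 2-fold higher. This split by length was added after the values had been seen. Of the 9 macrophage markers 7 lay above the median gene, with a median of 0.60 and a range from -0.27 (Mertk) to 1.12 (Cd14). The libraries also differed in RNA input and depth, as given above. The part of length, input and depth in the differences of the complement genes was not tested.

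Transcript assignments described how far each level rested on 1 model. C1qa, C1qb and C3ar1 have 1 annotated transcript each. C1qc-201, the coding transcript, held 90.6% and 87.3% of the level of C1qc in replicates 1 and 2, and C1qc-202, a processed transcript without a coding sequence, held 9.40% and 12.7%. Cfp-201 held 94.0% and 91.3% of Cfp. In the second quantification the 401-base Cfp-202 held 19.8% and 22.1%, against 5.98% and 8.74% in the gene tables' companion transcript tables. For C5ar1 the division depended on the quantification, with C5ar1-201 at 84.1% and 89.0% in the first and at 38.1% and 64.7% in the second, where C5ar1-202 held 51.2% and 24.5%.

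The low genes rested on few reads per transcript. C3-201, the full-length coding transcript, stood at 6.63 and 2.17 TPM, or 96.9% and 76.4% of the level of C3. The 662-base processed transcript C3-202 held 23.6% in replicate 2 from 4.34 expected counts, and 3.07% in replicate 1 from 2.04 counts. In the second quantification C3-201 held 82.5% and 59.2%, and C3-204 held 18.8% in replicate 2 and 0 in replicate 1. The mean effective length of C3 followed these shares, at 4772 bases in replicate 1 and 3871 in replicate 2, and it enters the TPM. For Cfb, 8 transcripts are annotated, and the full-length Cfb-201, Cfb-202 and Cfb-207 were listed at 0 in both libraries by both quantifications. The level lay on Cfb-205 (50.8%) and Cfb-206 (49.2%) in replicate 1, and on Cfb-204 (85.0%) and Cfb-206 (the remainder) in replicate 2. The libraries thus shared no leading transcript of Cfb there.

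**Figure D4:**
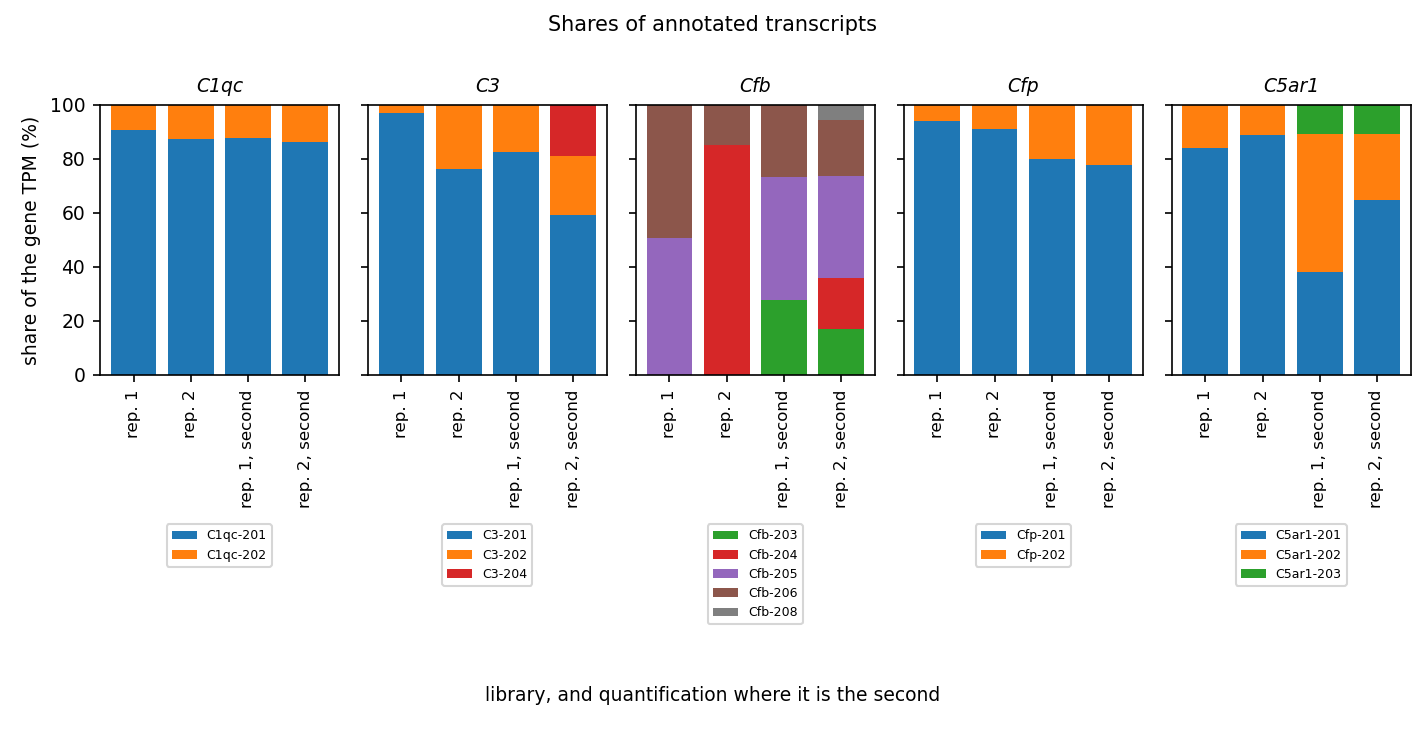
Share of each annotated transcript in the TPM of its gene, in percent, for the 5 genes with more than 1 transcript. Bars show replicates 1 and 2 in the transcript tables that accompany the gene tables, then in the second quantification. C1qc and Cfp keep 1 main transcript in all 4 bars, while no transcript leads in all 4 bars for Cfb or C5ar1.

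Of 49 further complement genes, 12 were detected at 1 TPM in both libraries and 19 had 0 counts in both. For scale, 46.0% of protein-coding genes and 23.6% of all annotated genes reached 1 TPM in both libraries. Receptors were detected most often, 7 of 9. The highest was Lrp1, a scavenger receptor that binds calreticulin, at 383 and 382 TPM, above C1qb in both libraries of the gene tables. In the second quantification Lrp1 (138 TPM) stood below C1qb (148 TPM) in replicate 1. Calr, which encodes calreticulin, a protein that can bind the C1q stem, stood at 235 and 213 TPM. Itgb2 (156 and 104 TPM) and Itgam (39.5 and 34.5 TPM), which encode the chains of complement receptor 3, and Itgax (3.12 and 2.36 TPM), which pairs with Itgb2 in complement receptor 4, were all present. Cd93, first described as a C1q receptor, stood at 103 and 94.9 TPM. C5ar2, the second receptor for C5a, stood at 3.24 and 2.28 TPM, well under C5ar1.

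Regulators were fewer. On the membrane 2 of 7 were detected, Cr1l (27.7 and 29.5 TPM), which encodes the rodent regulator Crry, and Cd46 (6.44 and 5.69 TPM). In the fluid phase list C1qbp, which encodes a mitochondrial protein that binds C1q, stood at 6.76 and 5.21 TPM. Of 16 recognition molecules and proteases of the classical and lectin pathways, C4a was detected (1.40 and 1.11 TPM), and its reads are uncertain because C4b (0.55 and 0.41 TPM) is nearly identical. None of 8 other alternative and terminal pathway genes was detected, and 6 of them had 0 counts in both libraries, among them Hc, which encodes C5, the source of the C5a that C5ar1 binds (named after its values were seen). A count of 0 allows up to 0.157 CPM in replicate 1 and 0.258 CPM in replicate 2.

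In the second quantification 18 of the 49 genes were detected, where 48.8% of protein-coding genes were. Of these 18 genes, 11 were detected in both quantifications and 7 in the second alone, while C4a was detected in the gene tables alone. Of the 49 genes 14 had a mean of 1 TPM or more, and 12 of these lay above the median gene in replicate 1. By construction 50.0% of tested genes do so. The median difference of these 14 genes was 0.14, against 0.70 for the 8 genes. Only Fcna, which encodes a ficolin and is named after its values were seen, was more than 2-fold higher in replicate 1, against 2.87% of tested genes. Fcna stood at 2.83 TPM from 73 counts in replicate 1 and at 0.71 TPM from 12 counts in replicate 2. None of the 14 was more than 2-fold higher in replicate 2, against 1.54% of tested genes.

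**Figure D5:**
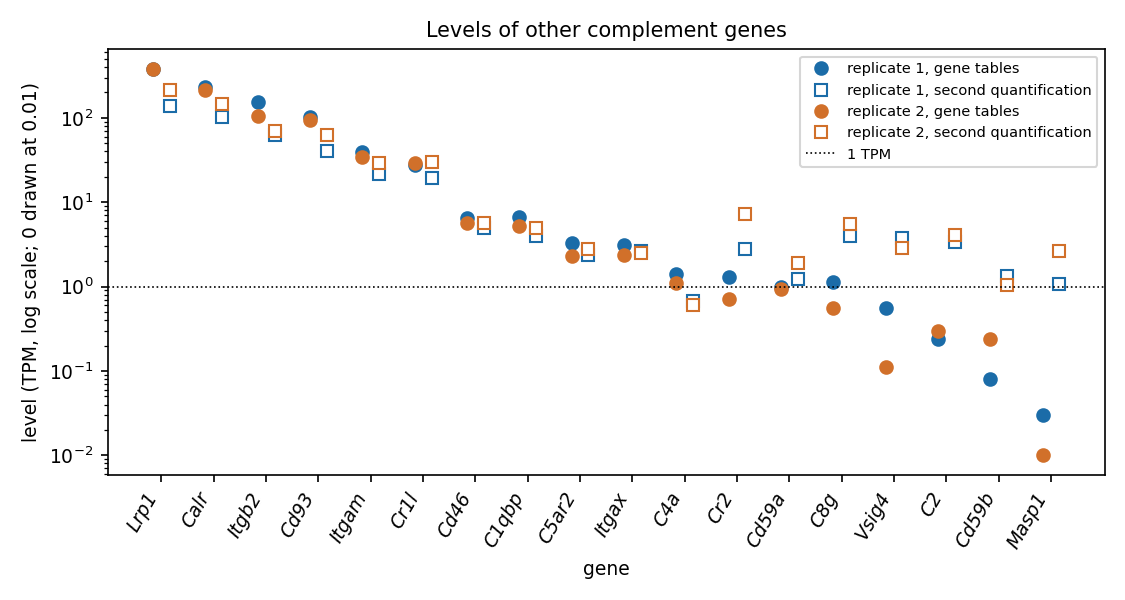
Levels in TPM on a log axis of the further complement genes named as detected in the gene tables and of those detected in the second quantification alone, ordered by mean level. Filled circles are the libraries in the gene tables, open squares the second quantification, the dotted line is 1 TPM, and values of 0 are drawn at 0.01. Lrp1 and Calr are highest, and the 7 genes detected in the second quantification alone have squares above the line and at least 1 circle below it.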

How the data were processed

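Ribosomal RNA depleted total RNA of the nuclear fraction was measured in 2 libraries of 1 group, numbered as in the labels. Per the file headers and the notes deposited with the files, gene tables on mm10 with GENCODE M21 hold expected counts and TPM as the authors deposited them, with the bounds of a TPM interval (a signal that is never negative) checked but not printed. Transcript tables of the same format accompany them. A second set of deposited transcript tables holds estimated counts and TPM, here summed per gene. Programs and strand handling are not given in the sources used here, which leaves overlapping genes uncertain. Entries naming no annotated gene (1.18% and 0.405% of counts in replicates 1 and 2) were left out.

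The members and lists were chosen with earlier results of these data known. Named were the 8 genes, further complement genes at 1 TPM in both libraries, genes overlapping a member, and transcripts holding at least 10% of a member's TPM in either library, with exceptions marked. A gene that this rule allows is counted but not reported here. With 2 libraries of 1 group no p-value is possible. Differences used log2(TPM + 1) centred on the median gene. Poisson 95% intervals, and the limit of 3 counts for a count of 0, cover counting error only, as PCR copies were not told apart by molecular identifiers. Alternatives used other detection levels, pseudocounts and filters, posterior mean TPM, expected counts, the second quantification, 1 library at a time, and rounded expected counts scaled by edgeR 4.0.16 (TMM) and DESeq2 1.42.0 in R 4.3.3. Values were computed with pandas 2.3.3, scipy 1.17.1 and numpy 2.4.6 in Python 3.11.15. Only the calculation of differences between libraries was tested on simulated data. That simulation had Poisson noise, a smaller pseudocount and changes only in genes with more counts than Cfb.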

Additional observations from a re-analysis of the deposited data

How the results depend on the processing

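All 8 genes stayed detected at 0.1 TPM, at 10 counts and in the second quantification, and 6 did at 5 TPM. In the second quantification 48.8% of protein-coding genes were detected. Further complement genes detected numbered 22 at 0.1 TPM. The share of all genes at 0.1 TPM, 5 TPM and 10 counts was not computed, so these counts have no background. In expected counts, which are not divided by length, the mean C1q share was 33.9%, the C1qb to C1qc ratio 1.18 and the ratio of C1q chains to receptors 0.72, against 58.5%, 1.3 and 2.84 in TPM. With either library left out the C1q share ran from 52.9% to 64.1%, C1qb to C1qa from 7.48 to 13, C1qb to C1qc from 1.26 to 1.33 and C1q to receptors from 2.2 to 3.47. The count of genes more than 2-fold apart was 2, and became 4 without centring. Without the filter on low genes the differences were identical to those without centring, so the count was again 4. The count became 1 in the second quantification and 0 there without centring, a setting added after the data were seen. It was 2 with a pseudocount of 0.1 and with TMM factors, but these were C1qa and C3, and 3 with DESeq2 size factors (C1qa, C1qc and C3). The share of all tested genes past 2-fold was computed only for the first count of 2 and for the centred second quantification. The counts under the other settings therefore have no background. Of 56 member differences under alternatives 52 lay above 0, with both of the identical settings counted. The 4 at 0 or below all came from the second quantification without centring. TPM rescaled to protein-coding genes without mitochondrial genes raised the mean of each of the 8 genes. C1qb rose from 257 to 1053 TPM and Cfb from 1.19 to 4.92 TPM, so every level depends on the genes that share the total. No paired analysis was possible because the libraries form 1 group. Depth limits Cfb most, at 41 and 15 counts.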
